A study of Mus musculus with 10 samples.

Results

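The expression of 10 transcription factors that maintain naive pluripotency in the mouse was followed across a small siRNA experiment in differentiating embryonic stem cells. The 10 genes were Nanog, Esrrb, Klf2, Klf4, Klf5, Tfcp2l1, Tbx3, Prdm14, Zfp42 and Nr0b1, known factors of the naive state. These genes were chosen by name, with earlier results of these data known. They were read from every probe set that carries one of these symbols alone in the platform annotation, which gave 21 probe sets for the 10 genes, out of 45037 probe sets and 18193 genes measured. Each gene is given below by its brightest probe set on average, and the other probe sets are described separately. The cells were NG4, a mouse embryonic stem cell line. They received siRNA by reverse transfection, were placed in retinoic acid to differentiate, and were harvested 48 hours after transfection. The 5 groups, with 2 arrays each, received a non-targeting siRNA (siNonTarget, the control) or an siRNA named for Sox17, Fbxw7, Socs3 or Rnf31. All 5 groups were in retinoic acid and all carried an siRNA, so no array in the set shows undifferentiated cells. For each array, 5 ng of total RNA was amplified, biotin-labelled and hybridised to a 1-colour Affymetrix array.

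Naive pluripotency is the state of the cells of the early epiblast, and mouse embryonic stem cells hold it through a mutually reinforcing set of transcription factors that act with Oct4 (Pou5f1) and Sox2. LIF sustains this set through STAT3, and Socs3 is a STAT3 target whose protein inhibits JAK and so damps the LIF signal. Klf4 and Tfcp2l1 are known targets of LIF and STAT3, Tbx3 is regulated by PI3K signalling and LIF, and Esrrb is repressed by Tcf7l1 when Wnt signalling is low. Retinoic acid pushes the cells towards neural and other differentiated fates, during which the naive factors are switched off.

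Windows of 250 bases before the start were matched for 7 of the 10 genes, from the RefSeq table of build GRCm38.p6, and 4 of them are printed because they hold matches to the binding motifs of factors of the network or of STAT proteins. Each is written 5′ to 3′ on the strand of its gene and ends at the base before the start, and capitals mark the motif matches. The Nanog window, chr6:122707239-122707488 on the plus strand, held an octamer match of OCT4 type at 75 to 69 bases before the start, in reverse orientation, followed after 1 base by a SOX match. It also held a KLF match 10 to 3 bases before the start.
Nanog: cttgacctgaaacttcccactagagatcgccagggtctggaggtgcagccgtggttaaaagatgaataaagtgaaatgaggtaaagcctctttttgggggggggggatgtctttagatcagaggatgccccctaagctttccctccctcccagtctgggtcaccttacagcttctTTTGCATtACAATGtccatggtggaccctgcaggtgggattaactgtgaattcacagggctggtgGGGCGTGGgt
The Zfp42 window, chr8:43307010-43307259 on the minus strand, held an octamer match at 185 to 179 bases before the start. It also held a KLF match that overlaps one of its GC boxes.
Zfp42: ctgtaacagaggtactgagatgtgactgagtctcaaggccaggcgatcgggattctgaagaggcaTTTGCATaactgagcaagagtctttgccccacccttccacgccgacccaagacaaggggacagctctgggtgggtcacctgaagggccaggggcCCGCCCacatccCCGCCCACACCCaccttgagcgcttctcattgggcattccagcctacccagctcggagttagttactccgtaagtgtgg
The Tfcp2l1 window, chr1:118627695-118627944 on the plus strand, held a pair of KLF matches between 61 and 40 bases before the start.
Tfcp2l1: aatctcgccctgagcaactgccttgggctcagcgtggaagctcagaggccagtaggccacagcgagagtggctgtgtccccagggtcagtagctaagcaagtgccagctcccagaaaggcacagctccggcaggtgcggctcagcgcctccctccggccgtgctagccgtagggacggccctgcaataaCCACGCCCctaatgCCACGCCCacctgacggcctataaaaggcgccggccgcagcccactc
The window of the upstream Esrrb start, chr12:86360867-86361116 on the plus strand, held a match to the palindrome bound by STAT proteins at 178 to 170 bases before the start.
Esrrb: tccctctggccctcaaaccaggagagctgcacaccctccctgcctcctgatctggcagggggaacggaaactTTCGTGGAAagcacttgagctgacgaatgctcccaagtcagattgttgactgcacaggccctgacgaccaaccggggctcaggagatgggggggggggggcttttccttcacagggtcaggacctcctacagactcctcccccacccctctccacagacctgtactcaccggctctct
The 7 genes had 9 windows, since Nanog and Esrrb each had a second start. The second Nanog window overlaps the first and holds the same octamer, SOX and KLF matches, which are thus counted in both windows, and another KLF match. The second Esrrb window, chr12:86421394-86421643, held no match. The motifs were searched on both strands. The octamer ATGCAAA was found in 4.12% of all 32851 windows of this length and in 3 of the 9 windows here, from 2 of the 7 genes. SOX, ACAATG, was found in 10.7% of windows and in 2 of the 9, from 1 of the 7 genes. KLF, GGGNGTGG, was found in 15.9% of windows and in 4 of the 9, from 3 of the 7 genes. The GC box GGGCGG was found in 32.7% of windows and in 3 of the 9, those of Klf2, Klf4 and Zfp42. STAT, TTCNNNGAA, was found in 7.02% of windows and in 1 of the 9. The ESRRB motif AAGGTCA was found in 4.08% of windows and in 0 of the 9. A match describes the letters of the window and does not show that a factor was bound there.

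The array medians lay between 46.39 and 47.95 on the intensity scale, and the stem cell markers Pou5f1, Sox2, Sall4, Lin28a, Utf1, Dppa4, Tdgf1, Cdh1, Epcam and Alpl all had a mean log2 intensity above 5. The targeted transcripts did not settle the labels. Socs3 was 0.44 ± 0.24 log2 higher (difference ± SE) on the arrays labelled siSocs3 than on the control (adjusted p = 0.281). Sox17 differed by 0.03 ± 0.53 in its own group (adjusted p = 0.988), Fbxw7 by -0.25 ± 0.16 (adjusted p = 0.775) and Rnf31 by -0.40 ± 0.17 (adjusted p = 0.778). Each target was read from its brightest probe set alone. Both siRnf31 arrays lay below both control arrays for Rnf31, while the pairs overlapped for Socs3, Sox17 and Fbxw7. The unadjusted limma p for Rnf31 was 0.0385, and 5.87% of all genes had one under 0.05 in that comparison. The groups are therefore named below as the labels name them. The first siNonTarget and the first siFbxw7 array had actin 3′ to 5′ differences of 0.497 and 0.597 log2, against 0.212 to 0.294 on the other 8 arrays. The labels do not say whether the 2 arrays of a group came from separate cultures, so the p-values measure only the spread between these arrays, and an exact permutation test of 2 arrays against 2 cannot reach 0.05.

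The means of the naive factors lay above the control in all 4 groups that received a targeting siRNA, except that of Klf5 with siRnf31, but the difference passed the test only in the arrays labelled siSocs3. There, 7 of the 10 genes rose: Nanog, Esrrb, Klf2, Klf4, Tfcp2l1, Prdm14 and Zfp42. None fell, and the differences of all 10 ran from 0.68 to 1.64 log2 with a median of 1.18, against a median of 0.03 over all genes. The test was limma's moderated test with all 5 groups in 1 model and Benjamini-Hochberg adjustment over 18193 genes, which called 3.59% of genes higher in this comparison. Both siSocs3 arrays lay above both control arrays for all 10 genes, an arrangement that 30.6% of genes showed. In bulk RNA, fewer cells that express a gene and less RNA per cell cannot be told apart. The count depended on single arrays: without the first siSocs3 array 1 gene passed, Prdm14, and without the first or the second siNonTarget array 4 and 5 passed.

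**Figure D1:**
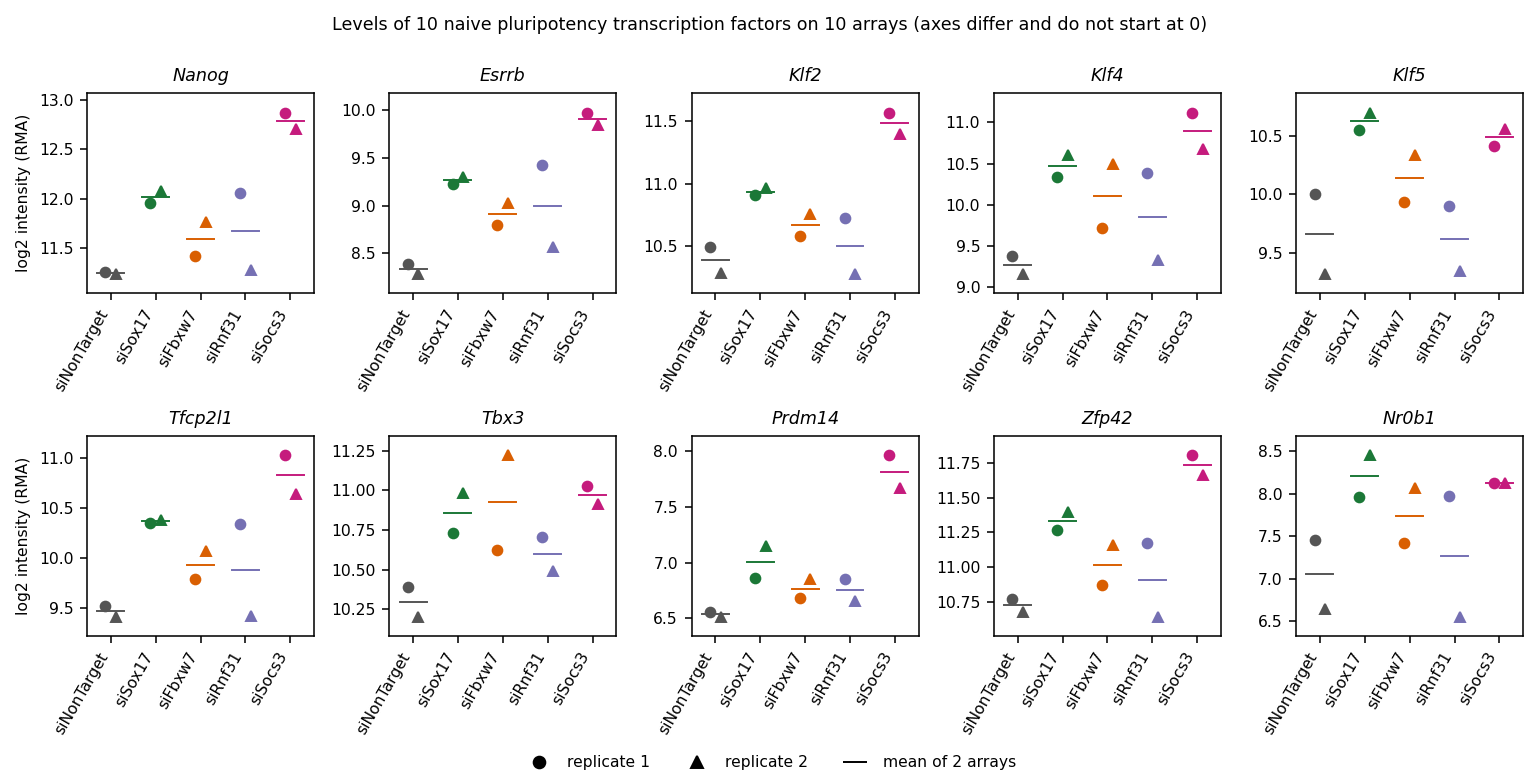
Log2 intensity (y axis, RMA scale) of each of the 10 genes on each of the 10 arrays, by siRNA group (x axis); circles are first and triangles second arrays, bars are means of 2 arrays, and each panel has its own y axis. The siSocs3 group had the highest mean for 8 of the 10 genes, though for Tbx3 its arrays overlapped with those of siSox17 and siFbxw7. The siNonTarget group had the lowest mean for 9 of the 10.

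Nanog, the homeodomain factor at the centre of the network, was lowest in the control and highest with siSocs3. Its log2 intensity was 11.26 and 11.24 on the siNonTarget arrays, 12.87 and 12.71 with siSocs3, 11.96 and 12.08 with siSox17, 11.42 and 11.76 with siFbxw7, and 12.06 and 11.28 with siRnf31. The siSocs3 arrays stood above all others, the siSox17 arrays came next, and the siRnf31 pair was split, one array beside siSox17 and one at the control level. The siSocs3 difference was 1.54 ± 0.22 log2, or 2.91-fold (95% interval 2.05 to 4.14, limma adjusted p = 0.00795).

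Esrrb, an orphan nuclear receptor that can stand in for Nanog in self-renewal, followed the same order. It was at 8.39 and 8.28 in the control, 9.98 and 9.85 with siSocs3, 9.23 and 9.30 with siSox17, 8.80 and 9.03 with siFbxw7, and 9.42 and 8.56 with siRnf31. Every array of the 4 targeting groups lay above both controls, and the siSocs3 pair did not overlap with any other group. Esrrb differed from the control by 1.58 ± 0.23 log2 (limma adjusted p = 0.0081).

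Tfcp2l1, a CP2 family factor and a LIF target, was at 9.52 and 9.41 in the control and 11.03 and 10.64 with siSocs3. It was at 10.35 and 10.38 with siSox17, 9.78 and 10.07 with siFbxw7, and 10.34 and 9.42 with siRnf31. The siSox17 arrays were nearly equal to each other, while the siRnf31 arrays lay about as far apart as siSox17 and the control. With siSocs3 the difference was 1.37 ± 0.26 log2 (limma adjusted p = 0.0176), and it did not pass without either siNonTarget array or the first siSocs3 array. With the mean of its 3 probe sets, of which the other pair was dim, it was 0.43 log2 (adjusted p = 0.0671).

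The Krüppel-like factors Klf2, Klf4 and Klf5 bind related GC-rich sites and share many targets in embryonic stem cells. Klf4, a STAT3 target and one of the reprogramming factors, had the largest siSocs3 difference of the 10 genes and also the largest spread within the siSocs3 pair. It was at 9.37 and 9.16 in the control, 11.12 and 10.68 with siSocs3, 10.34 and 10.61 with siSox17, 9.72 and 10.50 with siFbxw7, and 10.38 and 9.32 with siRnf31. Its siSocs3 pair stood above every other array, and the siFbxw7 and siRnf31 pairs each held 1 array near siSox17 and 1 nearer the control. The siSocs3 difference was 1.64 ± 0.35 log2, or 3.11-fold (95% interval 1.80 to 5.37, limma adjusted p = 0.0241), and it did not pass when either array of the control or of siSocs3 was left out.

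Klf2, which is linked to the ground state kept by MEK inhibition, varied over a narrower range. Its levels were 10.49 and 10.29 in the control, 11.57 and 11.39 with siSocs3, 10.91 and 10.97 with siSox17, 10.58 and 10.76 with siFbxw7, and 10.73 and 10.28 with siRnf31. The order of the groups was that of Klf4, and the second siRnf31 array was the lowest of the 10. Klf2 rose with siSocs3, by 1.09 ± 0.16 log2 (limma adjusted p = 0.00771).

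Klf5, needed for the inner cell mass lineages and for self-renewal, was highest with siSox17 and not with siSocs3. It was at 10.004 and 9.32 in the control, 10.41 and 10.56 with siSocs3, 10.55 and 10.70 with siSox17, 9.94 and 10.34 with siFbxw7, and 9.90 and 9.35 with siRnf31. The siSox17 and siSocs3 arrays overlapped, and the siRnf31 arrays lay within the range of the control pair. The siSocs3 difference of 0.83 ± 0.25 log2 had a limma adjusted p of 0.0718, and the direct difference of siSocs3 from siSox17 was -0.14 log2 with a 95% interval of -0.70 to 0.43.

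Prdm14, a PR-domain repressor of FGF signalling and of the de novo DNA methylation genes, was highest with siSocs3 and passed against each other group. Its log2 intensity was 6.56 and 6.52 in the control, 7.96 and 7.66 with siSocs3, 6.86 and 7.15 with siSox17, 6.68 and 6.85 with siFbxw7, and 6.85 and 6.65 with siRnf31. Both siSocs3 arrays stood clear of the other 8, which lay close together. The difference from the control was 1.28 ± 0.14 log2 (limma adjusted p = 0.00369), and it stayed past the threshold in all 18 alternative analyses, with adjusted p from 0.00288 to 0.0492.

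Zfp42 (Rex1), a zinc finger gene widely used as a reporter of the naive state, was at 10.77 and 10.68 in the control and 11.81 and 11.66 with siSocs3. It was at 11.26 and 11.40 with siSox17, 10.87 and 11.16 with siFbxw7, and 11.18 and 10.64 with siRnf31. The siSocs3 and siSox17 pairs each stood clear of every lower group, and the siRnf31 pair straddled the control. The rise with siSocs3 was 1.01 ± 0.17 log2 (limma adjusted p = 0.0128), and it did not pass without the first siNonTarget or the first siSocs3 array.

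Tbx3, a T-box factor that promotes self-renewal and also takes part in extraembryonic endoderm differentiation, hardly separated 3 of the groups. It was at 10.39 and 10.20 in the control, 11.03 and 10.92 with siSocs3, 10.73 and 10.98 with siSox17, 10.63 and 11.22 with siFbxw7, and 10.71 and 10.49 with siRnf31. Its highest array was the second siFbxw7 array, and the siSocs3, siSox17 and siFbxw7 pairs overlapped. The siSocs3 difference was 0.68 ± 0.19 log2 (limma adjusted p = 0.0591).

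Nr0b1 (Dax1), an orphan nuclear receptor that binds Oct4 and restrains its activity, had the widest gaps between replicate arrays in the control, siSox17 and siRnf31 pairs. It was at 7.45 and 6.65 in the control, 8.13 and 8.13 with siSocs3, 7.96 and 8.45 with siSox17, 7.42 and 8.07 with siFbxw7, and 7.98 and 6.55 with siRnf31. The siSocs3 pair agreed closely while the control pair and the siRnf31 pair were wide apart. The siSocs3 difference of 1.08 ± 0.44 log2 had a limma adjusted p of 0.16.

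**Figure D2:**
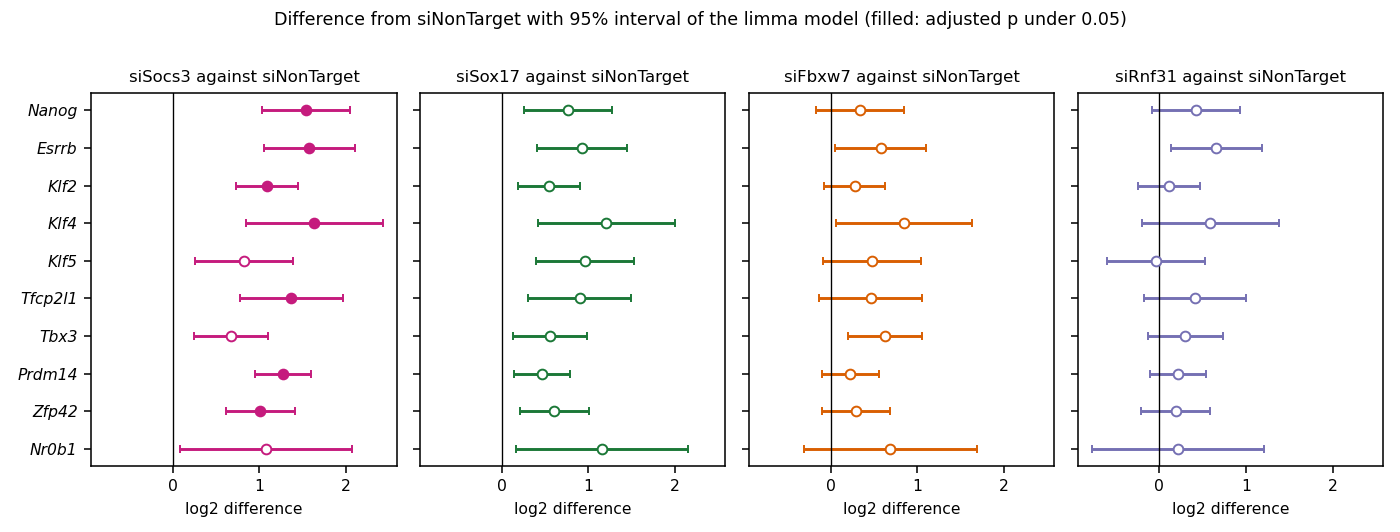
Log2 difference of each gene from siNonTarget (x axis) in the 4 comparisons, with the 95% interval of the limma model; filled points have an adjusted p under 0.05. Filled points occur only in the siSocs3 panel, for 7 of the 10 genes, and the siSox17 estimates lie to the right of 0 for all 10.

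With siSox17 the 10 genes were between the control and siSocs3 or, for Klf5 and Nr0b1, at the top. The differences from the control ran from 0.47 log2 for Prdm14 to 1.21 for Klf4, with a median of 0.84 against 0.00 over all genes. Both siSox17 arrays lay above both controls for all 10 genes, which held for 23.3% of all genes. None of the 10 passed limma's test, with adjusted p from 0.14 to 0.227, and 0% of genes were called higher. At an unadjusted p under 0.05 all 10 passed, as did 3153 of the 18193 genes (17.3%). When the 2 groups were fitted alone, 4 of the 10 passed after adjustment, as did 254 of the 18193 genes in either direction.

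With siFbxw7 the estimates were smaller. The differences from the control ran from 0.23 log2 for Prdm14 to 0.85 for Klf4, with a median of 0.47, and both arrays lay above both controls for 8 of the 10 genes, against 16.9% of all genes. Klf5 and Nr0b1 were the exceptions, since their first siFbxw7 array lay below the first control array. None passed limma's test (adjusted p from 0.752 to 0.785, 0% of genes called higher), and 3 of the 10 passed without adjustment, Esrrb, Klf4 and Tbx3, as did 6.46% of all genes.

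With siRnf31 the median difference was 0.26 log2, and the estimates ran from -0.04 for Klf5 to 0.66 for Esrrb. Both arrays lay above both controls for 4 of the 10 genes, Esrrb, Tbx3, Prdm14 and Nanog, against 16.6% of all genes. None passed limma's test (adjusted p from 0.778 to 0.979, 0% of genes called higher), and 1 passed without adjustment, Esrrb, as did 5.87% of all genes. The 4 comparisons share the same 2 control arrays, so their directions are not independent of each other.

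Set directly against the other targeting groups, siSocs3 stood out for Prdm14 in each comparison. Prdm14 was 0.81 ± 0.14 log2 higher than with siSox17 (limma adjusted p = 0.0238), 1.05 ± 0.14 higher than with siFbxw7 (adjusted p = 0.00664) and 1.06 ± 0.14 higher than with siRnf31 (adjusted p = 0.00992). Nanog and Klf2 passed in the last 2 of these comparisons. Nanog was 1.20 ± 0.22 log2 higher than with siFbxw7 (adjusted p = 0.0246) and 1.12 ± 0.22 higher than with siRnf31 (adjusted p = 0.043). Klf2 was 0.81 ± 0.16 log2 higher than with siFbxw7 (adjusted p = 0.028) and 0.98 ± 0.16 higher than with siRnf31 (adjusted p = 0.0192). The 3 comparisons share the siSocs3 arrays.

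The counts of genes that rose were thus 1 of 10 against siSox17, where 1.64% of all genes were called higher, 3 of 10 against siFbxw7, where 2.09% were, and 3 of 10 against siRnf31, where 1.51% were. Both siSocs3 arrays lay above both arrays of the other group for 7 of the 10 genes against siSox17 (28.6% of all genes), 9 against siFbxw7 (25.1%) and 10 against siRnf31 (27.3%). Tbx3 was the exception against siFbxw7, with a difference of 0.05 log2 and a 95% interval of -0.38 to 0.48. Against siSox17 the pairs overlapped for Klf5, Tbx3 and Nr0b1. Each of these counts depended on single arrays: it fell without the first siSocs3 array and rose without the first siRnf31 array. The changes are not set against all genes here, so they are not read as a result about the 10 genes.

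Among siSox17, siFbxw7 and siRnf31 none of the 10 genes passed limma's test in any of the 3 pairings, in which 0% of genes were called higher. At an unadjusted p under 0.05 none passed for siSox17 against siFbxw7 or siFbxw7 against siRnf31, and 3 passed for siSox17 against siRnf31, Klf2, Klf5 and Zfp42. The shares of all genes were 5.59%, 5.19% and 7.67%. The largest of these differences was that of Klf5, 1.002 ± 0.25 log2 higher with siSox17 than with siRnf31 (adjusted p = 0.508). The 95% interval for Nanog in siSox17 against siFbxw7 was -0.08 to 0.94 log2, so an appreciable difference was not excluded by these data.

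The 10 genes moved together between replicate arrays of the same group as well as between groups. All 10 were higher on the first than on the second siNonTarget array, with a median gap of 0.15 log2, and all 10 were lower on the first siSox17 and the first siFbxw7 array than on the second, by medians of 0.14 and 0.32 log2 (median gaps -0.14 and -0.32). With siSocs3, 9 were higher on the first array and Klf5 on the second. The widest gaps were in siRnf31, where all 10 were higher on the first array, by a median of 0.67 log2 and by up to 1.42 for Nr0b1. In that pair the gap exceeded 0.5 log2 for 7 of the 10 genes and for 5.73% of all genes, and 49.1% of all genes were higher on the first array. The mean deviation of the 10 genes from their own averages was 0.10 log2 on the first siRnf31 array, near the 0.16 of the first siSox17 array, and -0.61 on the second, near the -0.69 of the second control array.

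**Figure D3:**
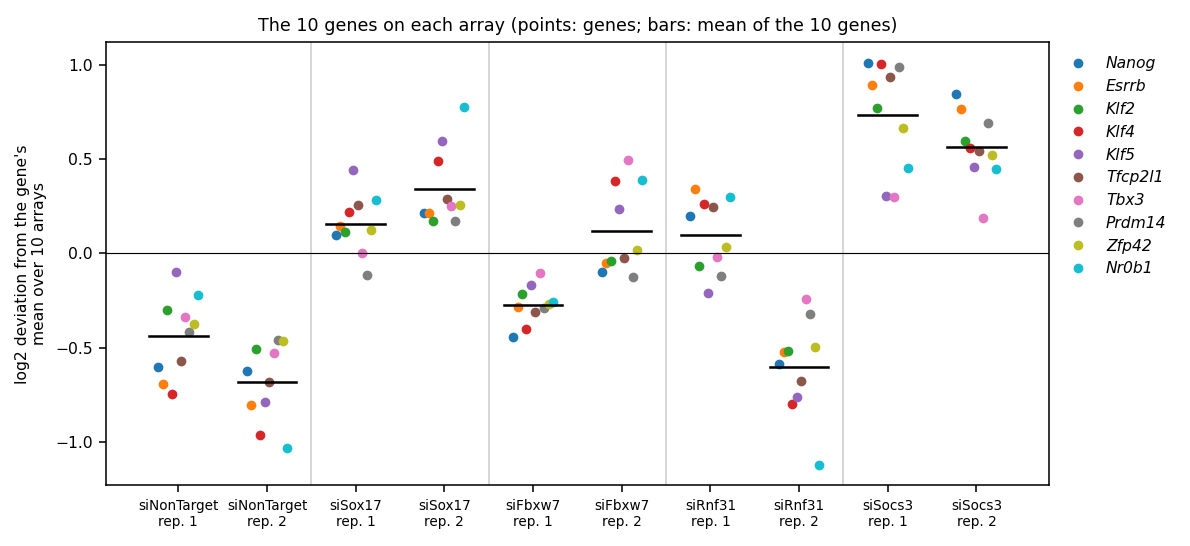
Deviation of each gene from its own mean over the 10 arrays (y axis, log2) on each array (x axis); points are genes and black bars the mean of the 10 genes. On the second siRnf31 array, the first siFbxw7 array and both control arrays all 10 genes lie below 0. On both siSocs3 arrays and the second siSox17 array all 10 lie above 0.

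Markers of other cell types differed between these arrays too. The summed intensity of 12 fibroblast feeder markers was 1705 and 2140 on the control arrays and 1293 and 1493 with siSocs3. It was 1459 and 1312 with siSox17, 1667 and 1307 with siFbxw7, and 1365 and 2275 with siRnf31. The sum was highest on the second siRnf31 and the second control array, on which the naive factors were lowest. Of these 12 markers Thy1, Postn, Lum, Fap and Col6a3 had a mean log2 intensity under 5, near the bottom of the range. A sum weighs the brighter markers most. For siSocs3 against the control the median difference of the 12 was 0.00 log2, with 7 of the 12 estimates above 0. The summed intensity of 12 extraembryonic endoderm markers was 8037 and 10515 with siFbxw7 and between 4702 and 6692 on the other 8 arrays. The part of these cell types in the levels of the naive factors was not tested. The actin difference was 0.275 log2 on the first and 0.253 on the second siRnf31 array. Whether RNA quality had a part in the gaps within that pair was not tested. Without the 2 arrays of high actin difference, 7 of the 10 genes again passed for siSocs3 against the control, with Klf5 and Tbx3 in place of Klf4 and Tfcp2l1.

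Of the 21 probe sets, 15 had a mean log2 intensity above 5 and 6 lay below it. The 15 brighter ones lay between the 60.6th and the 97.6th percentile of all probe sets, and the 6 dim ones between the 4.4th and the 37.4th. Nanog, Klf2, Prdm14, Zfp42 and Nr0b1 had 1 probe set each. In a fit over all 45037 probe sets, 9 of the 21 rose with siSocs3 against the control, all of them among the 15 brighter ones, where 2.06% of all probe sets were called higher by limma. Fewer of the 21 passed when any single array of siSocs3, the control or siSox17 was left out.

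For siSocs3 against the control, the probe sets of a gene agreed in direction where they were bright. The second Klf4 probe set differed by 1.45 ± 0.30 log2 (limma adjusted p = 0.0312), beside 1.64 for the first. The second Esrrb probe set differed by 0.94 ± 0.20 (adjusted p = 0.0342), beside 1.58, and the third, which was dim, by 0.49 ± 0.16 (adjusted p = 0.118). The other Tfcp2l1 probe sets lay at mean log2 intensities of 3.10 and 3.05, at the bottom of the range, and differed by -0.17 and 0.09 log2, neither passing. The second Klf5 probe set was at 6.11 and 6.21 in the control, 6.82 and 6.51 with siSocs3 and 6.96 and 7.13 with siSox17. It was highest with siSox17, as the first Klf5 probe set was, and differed from the control by 0.88 ± 0.15 log2 there (adjusted p = 0.228) and by 0.50 ± 0.15 with siSocs3 (adjusted p = 0.09). The third, which was dim, differed by 0.06 with siSocs3. None of the 5 Tbx3 probe sets passed, and their differences were 0.68, 0.40, 0.27, 0.40 and 0.07 log2. On the second-brightest Tbx3 probe set the siFbxw7 arrays, at 10.48 and 10.86, were above the siSocs3 arrays, at 10.41 and 10.19. With the mean of each gene's probe sets in place of the brightest, 6 of the 10 genes passed for siSocs3 against the control. Tfcp2l1 was lost, and Esrrb differed by 1.002 log2 (limma adjusted p = 0.013), Klf5 by 0.46 (adjusted p = 0.0541) and Tbx3 by 0.36 (adjusted p = 0.0911).

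Against the other groups, 1 of the 21 probe sets rose with siSocs3 relative to siSox17 (0.944% of all probe sets), 3 relative to siFbxw7 (1.38%) and 2 relative to siRnf31 (0.846%). In the other 6 comparisons limma called 0 of the 21, and 0% of all probe sets higher. Without adjustment 17, 5 and 1 of the 21 had a p under 0.05 for siSox17, siFbxw7 and siRnf31 against the control, beside 12.8%, 5.43% and 5.52% of all probe sets. Among those 3 groups 1 did for siSox17 against siFbxw7, 5 for siSox17 against siRnf31 and 1 for siFbxw7 against siRnf31, beside 4.6%, 5.89% and 4.36%. The count against siSox17 fell without any single array of siNonTarget, siSox17, siSocs3 or siRnf31. Those against siFbxw7 and siRnf31 moved in both directions when single arrays were left out. The matching counts over all probe sets were not made.

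**Figure D4:**
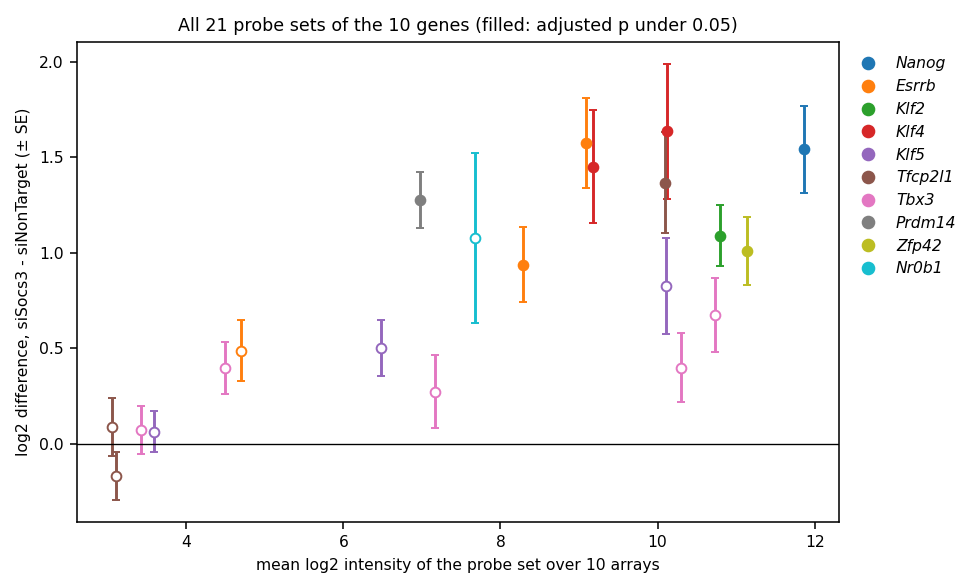
Log2 difference of siSocs3 from siNonTarget (y axis, bars are standard errors) for all 21 probe sets against their mean log2 intensity over 10 arrays (x axis); colours are genes and filled points have a limma adjusted p under 0.05. The 6 probe sets with a mean under 5 lie between -0.17 and 0.49, and all 9 filled points lie above 6 on the x axis.

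Other genes of the naive state, which are not among the 10 but mark the same state, formed a second list. The median over the 11 measured was 1.06 log2 with siSocs3. Of these 11, 5 rose, beside 3.59% of all genes called higher, and none fell. They were Fbxo15, Jam2 and Nr5a2, and also Dppa3 and Tcl1, which are named after their values were seen. Fbxo15, an Oct4 and Sox2 target, was at 11.07 and 11.34 in the control, 12.97 and 12.56 with siSocs3, and 10.84 to 11.24 on the other 6 arrays. The pairs of the other targeting groups overlapped with the control or lay below it. Its siSocs3 difference was 1.56 ± 0.16 log2 (limma adjusted p = 0.00271).

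Of 10 core pluripotency genes, 4 rose with siSocs3 and none fell, with a median of 0.86 log2: Zfp296, Dppa2 and Tdgf1, and Utf1. Among all genes limma called 3.59% higher in this comparison. Of the 10 core genes, 1 had a mean log2 intensity under 5. Tdgf1 (Cripto), a Nodal co-receptor, rose by 2.06 ± 0.33 log2 (limma adjusted p = 0.00985), and Zfp296, a zinc finger partner of Klf4, rose by 1.95 ± 0.17 (adjusted p = 0.00215). Pou5f1, which encodes Oct4, was at 11.84 and 11.10 in the control and 12.53 and 12.63 with siSocs3, a difference of 1.11 ± 0.32 (adjusted p = 0.0645). Of 12 LIF receptor, JAK and STAT3 pathway genes 2 rose, Bcl3 by 0.78 ± 0.12 (adjusted p = 0.00848) and Sgk1 by 1.94 ± 0.30 (adjusted p = 0.00932), and the median was 0.04. Bcl3 encodes an IκB family co-regulator and Sgk1 a kinase.

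None of 11 genes that promote exit from the naive state passed limma's test with siSocs3, and 2 had an unadjusted p under 0.05, with a median of -0.04 log2. They were Zfp281, at 0.35 ± 0.12 (adjusted p = 0.106), and Fnip1, at -0.33 ± 0.12 (adjusted p = 0.113). Of 14 genes of the formative and primed states, 1 rose and 2 fell, with a median of -0.17. Of these 14, 2 had a mean log2 intensity under 5. Among all genes limma called 3.59% higher and 5.66% lower. Dnmt3b, a de novo DNA methyltransferase, rose by 0.84 ± 0.15 (adjusted p = 0.0129), while Sox4 and Sall2 changed by -0.98 ± 0.15 (adjusted p = 0.00849) and -1.36 ± 0.32 (adjusted p = 0.0319). Of 12 other Krüppel-like factor genes none rose and 2 fell, Klf12 with a difference of -0.79 ± 0.18 (adjusted p = 0.0293) and Klf11 of -0.46 ± 0.12 (adjusted p = 0.0455). Klf9 differed by 0.72 ± 0.22 and did not pass (adjusted p = 0.0794). Of these 12, 2 had a mean log2 intensity under 5.

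The retinoic acid and neural lists ran the other way. Of 11 retinoic acid response genes 8 fell with siSocs3, with a median of -1.38 log2, beside the 5.66% of all genes called lower. Rarb, the retinoic acid receptor beta gene, was at 9.87 and 10.08 in the control and 8.78 and 8.83 with siSocs3 (difference -1.17 ± 0.13, limma adjusted p = 0.00366). Meis2, a homeobox gene, was at 11.07 and 10.76 in the control and 8.73 and 9.05 with siSocs3 (difference -2.02 ± 0.29, adjusted p = 0.00777). Both were lowest on the arrays on which the naive factors were highest. Of 8 neural ectoderm markers 5 fell, with a median of -1.29, among them Pax6 by -2.09 ± 0.32 (adjusted p = 0.00879).

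Among the other cell type lists, 2 of 12 fibroblast markers, Col1a2 and Twist1, and 1 of 12 extraembryonic endoderm markers, Foxa2, fell with siSocs3, with medians of 0.00 and -0.21 log2. The estimates of 7 of the 12 fibroblast and 5 of the 12 endoderm markers were above 0, and 1 of 12 is near the share of all genes called lower. Of 10 stem cell markers, 7 of which are also in the core list, 2 rose, with a median of 0.38. The share of all genes called higher was 3.59%. In the other 3 comparisons with the control limma called no gene of any of these lists. At an unadjusted p under 0.05 the largest counts there were 8 of 10 core genes and 8 of 11 retinoic acid response genes, both with siSox17. At that threshold 17.3% of all genes passed with siSox17. The estimates were above 0 for 7 of the 10 core genes and for 0 of the 11 retinoic acid response genes.

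**Figure D5:**
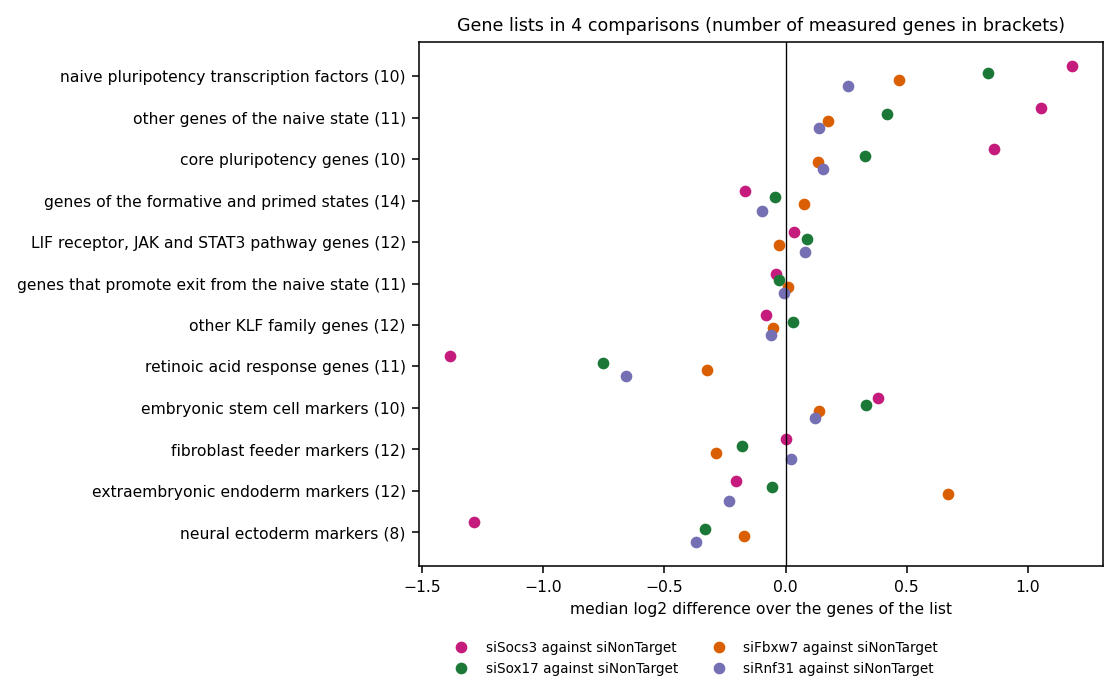
Median log2 difference from siNonTarget (x axis) over the genes of each list (y axis, number of measured genes in brackets) for the 4 comparisons. For siSocs3 the 10 naive factors have the highest median, 1.18, and the retinoic acid response genes the lowest, -1.38.

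Genes with the profile closest to each factor were found by the root mean square difference of log2 values over the 10 arrays, each gene centred on its own mean, which is a description over arrays of shared groups. The 10 factors were often each other's neighbours: Klf2 and Zfp42 differed by 0.069 log2, Nanog and Esrrb by 0.106, and Esrrb and Tfcp2l1 by 0.115. Jam2 was the closest other gene to Nanog, at 0.092, and to Tfcp2l1, at 0.134. Eomes, a T-box gene, was the closest to Esrrb, at 0.127. Adgre5 was closest to Klf2, at 0.097, Hormad1 to Zfp42, at 0.083, and Rpp25 to Prdm14, at 0.113. L1td1 was closest to Klf4, at 0.216, the loosest fit of the 10.

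Klf5, Nr0b1 and Tbx3 had other neighbours. Fgf4, the fibroblast growth factor gene driven by Oct4 and Sox2, was the closest gene to Nr0b1, at 0.185, and the next after Tmem45a, at 0.143, for Klf5, at 0.16. Pou5f1 was the second closest to Nr0b1, at 0.191. Fgf4 was at 7.78 and 7.45 in the control, 8.55 and 8.53 with siSocs3, 8.49 and 8.95 with siSox17, 7.97 and 8.58 with siFbxw7, and 8.24 and 7.44 with siRnf31. Fgf4 was highest on the second siSox17 array, as were Klf5 and Nr0b1, whose profiles over these arrays it was picked to match. Tbx3 was closest to Trpm6, at 0.092, and its nearest neighbour among the 10 was Zfp42, at 0.243.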

How the data were processed

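The authors deposited a linear intensity for each probe set on each array. Per the submitters' processing notes these were summarised by RMA, whose version is not given in the sources used here. RMA equalises the arrays' distributions, which hides any shift that most genes share. Log2 was taken of the intensities, which ran from 5.05 to 31606.3. Of 45101 probe sets, 64 controls were left out, 34958 had 1 gene symbol in the platform annotation, 932 had several and 9211 had none. Entrez identifiers of 34754 matched the RefSeq table and 0 symbols changed. A gene was its probe set of highest mean, and 9183 of 18193 genes had only 1. No filter on dim genes was applied.

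limma 3.58.1 in R 4.3.3 fitted 1 model over the 5 groups to all genes, or to all probe sets, with no block, leaving 5 residual degrees of freedom. Two-sided p-values were adjusted by Benjamini-Hochberg within each of 10 comparisons, and calls had an adjusted p under 0.05. Because 2 arrays a group give little information, the precision of every value is limited by their number. Alternatives were the replicate number as a block, the 2 groups alone, quantile normalization, median centring, no dimmest 30% of genes, the mean over a gene's probe sets, a trended and robust prior, no arrays of high actin difference, and each array left out in turn.

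The genes named are the 10 factors with all their probe sets, at most 3 genes per other list by smallest p in siSocs3 against the control, and the 2 genes of closest profile to each factor (unnamed gene models skipped). The 10 genes and all lists were chosen with earlier results of these data known. A few genes of the lists are not analysed here. No promoter window was printed for Klf5, Tbx3 or Prdm14. Figures were drawn with matplotlib 3.10.9.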

Additional observations from a re-analysis of the deposited data

How the results depend on the processing

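Fitted with the 2 groups alone, 4 members passed for siSox17 against siNonTarget (0 in the model of 5 groups), 4 for siSocs3 against siSox17 (1) and 1 for siSocs3 against siRnf31 (3). With a trended and robust prior 5 passed for siSocs3 against siFbxw7 (3), and without the 2 arrays of high actin difference 0 passed there and 5 for siSocs3 against siRnf31 (3). All genes called for siSocs3 against siNonTarget went from 1684 to 858 without those 2 arrays, and for siSocs3 against siSox17 they went from 475 to 740, against siFbxw7 from 638 to 218 and against siRnf31 from 388 to 677. With the 2 groups alone they were 880 against siSox17, 307 against siFbxw7, and 254, from 1, for siSox17 against siNonTarget. The cause was not tested. With the replicate number as a block, 7 members passed for siSocs3 against siNonTarget, and 0 probe sets, from 1, for siSocs3 against siSox17. Replicate numbers are not known to pair arrays: gaps between replicates correlated at -0.26 to 0.421 between groups.

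When each array was left out in turn, members called ran from 1 to 8 for siSocs3 against siNonTarget, 0 to 3 against siSox17, 0 to 6 against siFbxw7 and 0 to 6 against siRnf31. Probe sets called ran from 0 to 10, 0 to 1, 0 to 6 and 0 to 3. All genes called for siSocs3 against siNonTarget ran from 63 to 2074. No called difference of a member changed direction.

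Some differences that had not passed turned in sign. Klf5 in siRnf31 against siNonTarget, -0.04 log2, was 0.005 with median centring, 0.028 with the mean of its probe sets and 0.30 without the arrays of high actin difference. Using the mean of its probe sets, Tbx3 was -0.05 for siSocs3 against siSox17 and -0.076 against siFbxw7. Without the arrays of high actin difference, Tbx3 was -0.25 for siSocs3 against siFbxw7, Klf4 -0.029 for siSox17 against siFbxw7, and Nanog and Esrrb 0.094 and 0.036 for siFbxw7 against siRnf31. With arrays left out in turn, siRnf31 against siNonTarget ran from -0.38 to 0.30 for Klf5, -0.50 to 0.93 for Nr0b1, -0.11 to 0.34 for Klf2, -0.05 to 0.87 for Tfcp2l1 and -0.08 to 0.45 for Zfp42. In siSocs3 against siSox17 they ran from -0.01 to 0.24 for Tbx3 and -0.33 to 0.17 for Nr0b1, and for Tbx3 from -0.25 to 0.35 against siFbxw7. In siSox17 against siFbxw7 they ran from -0.37 to 0.23 for Tbx3 and -0.029 to 0.75 for Klf4. In siSox17 against siRnf31 they ran from -0.044 to 0.74 for Nanog and -0.16 to 0.70 for Esrrb. In siFbxw7 against siRnf31 they ran from -0.47 to 0.31 for Nanog, -0.51 to 0.35 for Esrrb, -0.27 to 0.79 for Klf4, -0.41 to 0.51 for Tfcp2l1, -0.085 to 0.11 for Prdm14, -0.16 to 0.37 for Zfp42, -0.061 to 0.39 for Klf2 and -0.23 to 1.19 for Nr0b1. A lone remaining array was assumed to vary like the other groups.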
